A study of Homo sapiens with 6 samples.

Results

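The genes of MHC class I antigen presentation were followed in DEV, an established line from a nodular lymphocyte predominant Hodgkin lymphoma, grown alone or beside blood cells. The genes were HLA-B, HLA-C, HLA-E, B2M, TAP1, TAP2, TAPBP, PSMB9 and PSMB10, and a probe set was taken wherever one of these symbols stood in its gene symbol field, whatever its values. This gave 14 of the 32321 probe sets on the array and 8 of the 9 genes. Of these probe sets, 10 carried 1 symbol and covered 6 genes, and 4 carried HLA-B together with HLA-C or HLA-F. HLA-E had no probe set under its symbol and was not analysed here.

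The 6 Affymetrix gene arrays formed 3 groups of 2, and each culture lasted 5 days. In monoculture the DEV cells grew alone. In the T cell coculture DEV cells shared the dish with CD3-positive T cells, and in the monocyte coculture with CD14-positive monocytes, at 1 DEV cell to 10 blood cells. The blood cells came from healthy donors whose MHC type was not matched to DEV. By flow cytometry the authors found no MHC class I or class II on the surface of DEV, also during coculture. The values here are of RNA and do not measure the surface. Magnetic beads against CD4, CD8 and CD14 then removed the blood cells, a step the methods describe for the cocultures only, so that bead handling and coculture cannot be told apart. DEV is 1 cell line, and nothing in the labels says whether the 2 arrays of a group came from separate cultures, so that p-values measure only the spread between these arrays. Each value is a normalized log2 signal, and a difference of 1 is a factor of 2.

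MHC class I molecules display fragments of the proteins made inside a cell to CD8-positive T cells. The proteasome cuts proteins into peptides, and under interferon gamma its catalytic subunits are replaced by PSMB8, PSMB9 and PSMB10, which form the immunoproteasome. TAP1 and TAP2 together pump the peptides into the endoplasmic reticulum, where TAPBP (tapasin) holds the transporter next to an empty class I molecule. The heavy chains, among them HLA-B and HLA-C, fold there with B2M (beta-2 microglobulin) and a peptide before they leave for the cell surface. Hodgkin lymphoma cells and other malignant B cells often lose class I from their surface.

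The promoters of these genes are known targets of interferon-regulated factors and of NF-kB. The sequences upstream of 5 of them are printed here because they show where the members differ in exact matches to these motifs close to the start. Windows of 250 bases before and 50 bases after each annotated start were taken from RefSeq (GRCh38.p14) for all 8 measured genes, with 2 windows for TAP1. Both strands were searched for the core of the interferon-stimulated response element (TTTCNNTTTC), the NF-kB site (GGGNNTNNCC) and the gamma-activated site (TTCNNNGAA). The lines give the 250 bases upstream of the start, 5′ to 3′ on the strand of the gene, with the matched letters in capitals.
B2M, GRCh38.p14 chr15:44711267-44711516, plus strand: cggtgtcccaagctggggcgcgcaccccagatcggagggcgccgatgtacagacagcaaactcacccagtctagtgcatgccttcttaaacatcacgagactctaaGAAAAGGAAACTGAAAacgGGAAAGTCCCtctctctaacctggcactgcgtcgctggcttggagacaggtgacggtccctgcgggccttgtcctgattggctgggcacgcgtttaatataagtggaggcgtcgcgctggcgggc
HLA-C, GRCh38.p14 chr6:31272093-31272342, minus strand: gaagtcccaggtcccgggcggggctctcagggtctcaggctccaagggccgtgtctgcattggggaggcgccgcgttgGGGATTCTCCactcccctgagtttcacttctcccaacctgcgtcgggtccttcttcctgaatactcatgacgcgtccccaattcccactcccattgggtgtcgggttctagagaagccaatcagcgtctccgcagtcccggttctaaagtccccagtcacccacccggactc
TAP1 window 1, GRCh38.p14 chr6:32853705-32853954, minus strand: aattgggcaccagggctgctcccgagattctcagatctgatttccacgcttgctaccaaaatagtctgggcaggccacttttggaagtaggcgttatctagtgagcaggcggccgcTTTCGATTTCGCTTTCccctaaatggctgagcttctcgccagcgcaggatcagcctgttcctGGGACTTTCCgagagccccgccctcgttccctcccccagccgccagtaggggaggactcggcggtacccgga
PSMB9, GRCh38.p14 chr6:32853942-32854191, plus strand: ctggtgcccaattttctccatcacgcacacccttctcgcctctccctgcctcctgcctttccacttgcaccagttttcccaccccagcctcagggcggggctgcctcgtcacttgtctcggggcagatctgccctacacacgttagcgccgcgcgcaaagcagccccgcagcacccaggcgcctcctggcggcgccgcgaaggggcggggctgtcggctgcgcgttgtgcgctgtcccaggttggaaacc
PSMB10, GRCh38.p14 chr16:67936851-67937100, minus strand: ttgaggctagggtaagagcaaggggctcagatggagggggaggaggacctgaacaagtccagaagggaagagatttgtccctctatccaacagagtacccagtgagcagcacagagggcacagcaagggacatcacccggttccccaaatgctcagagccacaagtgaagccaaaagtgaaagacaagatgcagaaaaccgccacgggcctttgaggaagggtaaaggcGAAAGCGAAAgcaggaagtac
Only exact matches to these letters were counted, so a window without a match is not shown to lack the element. The letters of the interferon-stimulated response element were matched in 5 of the 9 windows, against 3.57% of all 35116 windows of this length. These were windows of B2M, TAP1, TAP2, TAPBP and PSMB10. In B2M the matches overlapped, beginning 144 and 138 bases before the start, and the TAP1 pair overlapped in the same way at 134 and 128 bases. The match of PSMB10 began 21 bases before its start. The NF-kB letters were matched in 5 windows (HLA-B, HLA-C, B2M, TAP1 and TAPBP) against 22% of all windows. In HLA-B overlapping matches began 177 and 176 bases before the start, the first of them read on both strands. The gamma-activated letters were matched in 1 window, that of the downstream TAP1 start, against 7.66%. No match to any of these letters lay in the PSMB9 window. TAP1 and PSMB9 are read in opposite directions from starts 488 bases apart, and the windows of these neighbours overlap by 13 bases. The TAP1 matches that begin 134, 128 and 72 bases before its start lie between these starts. They are therefore also upstream of PSMB9, but outside its window. In the gene table TAP2, PSMB8, the antisense gene PSMB8-AS1, TAP1 and PSMB9 follow each other in this order.

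**Figure D1:**
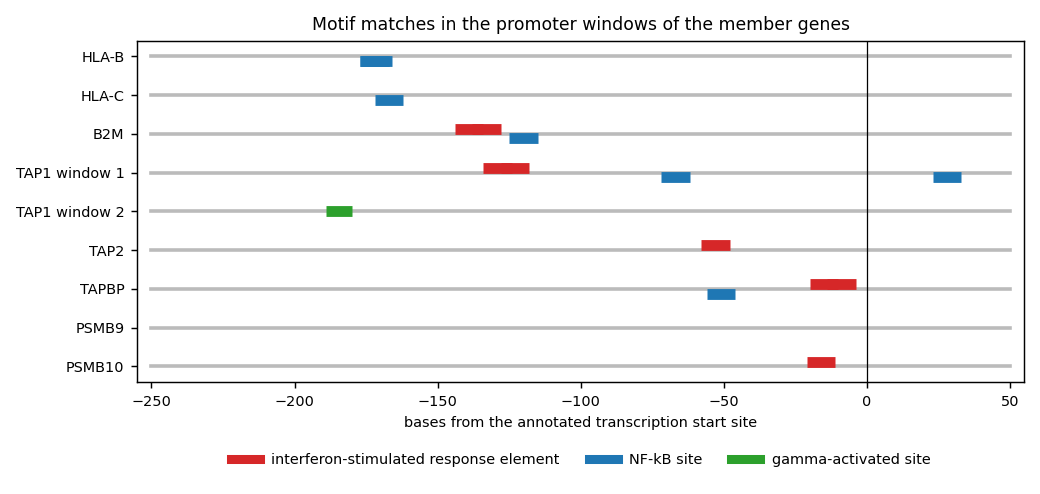
Matches to 3 motifs in the RefSeq promoter window of each member gene, drawn as blocks by their distance in bases from the annotated start (x axis). Each grey line is 1 window of 300 bases. Exact matches to the core of the interferon-stimulated response element appear in 5 windows, and the PSMB9 window has no match.

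Several of the genes have more than 1 probe set. The 3 TAP2 probe sets list the same 11 transcript accessions, and so do the 3 TAPBP probe sets. Probe sets with the same accessions are separate readings of 1 gene and not replicates of a culture. The 2 probe sets annotated to HLA-F and HLA-B list the same 12 accessions, of which the 3 RefSeq transcripts all belong to HLA-F. Of the 2 annotated to HLA-C and HLA-B, probe set 1 (8178498) has 1 RefSeq transcript, of HLA-B, and probe set 2 (8179731) has 3, of HLA-B and HLA-C. Class I heavy chains share part of their sequence and these 4 probe sets carry several symbols, so that their signal was not assigned to 1 gene.

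The differences between DEV cells beside blood cells and alone were small, and their direction varied from gene to gene. Among the heavy chain probe sets, 1 of HLA-C and HLA-B and 1 of HLA-F and HLA-B had higher values in all 4 coculture arrays than in both monoculture arrays, while TAP1, PSMB9 and PSMB10 had lower values in all 4. Of all probe sets, 15.2% were higher and 13.8% lower in all 4 coculture arrays in this way. No member passed the test over all probe sets in any of the 4 comparisons, where 0% to 0.718% of all passed. B2M, the light chain common to all class I molecules, differed least between the arrays. The differences between both cocultures and monoculture were -0.29 for TAP1, -0.52 for PSMB10 and -0.67 for PSMB9 on the log2 scale, or 1.22-fold, 1.43-fold and 1.60-fold lower.

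The heavy chains form the peptide groove of the class I molecule. HLA-C and HLA-B probe set 2 (8179731) stood at 11.32 and 11.45 in monoculture, at 11.60 and 11.88 with T cells and at 11.74 and 11.77 with monocytes. Each coculture array lay above both monoculture arrays, and the cocultures overlapped each other. The difference between both cocultures and monoculture was 0.36 ± 0.11 (SE, limma adjusted p = 0.147), near 1.28-fold. HLA-C and HLA-B probe set 1 (8178498) stood at 9.16 and 9.68 alone, at 9.60 and 9.62 with T cells and at 9.46 and 9.21 with monocytes. Here the monoculture arrays enclosed all the others, and the difference was 0.049 ± 0.16 (95% interval -0.34 to 0.44), which turned to -0.014 when the arrays were centred on their medians. The pair of probe sets that share these symbols therefore gave different values.

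HLA-F is a non-classical class I heavy chain. The probe set 2 of HLA-F and HLA-B (8179019) stood at 7.08 and 7.30 alone, at 7.44 and 7.53 with T cells and at 7.62 and 7.39 with monocytes. All 4 coculture arrays were higher, by 0.31 ± 0.11 (limma adjusted p = 0.206), and the cocultures overlapped each other. Its partner, probe set 1 (8117760), stood at 6.60 and 6.39 alone, at 6.34 and 6.29 with T cells and at 6.79 and 7.29 with monocytes. The T cell arrays were the lowest and the monocyte arrays the highest, with monoculture between them and no overlap. Monocyte minus T cell coculture gave 0.73 ± 0.18 (unadjusted p = 0.00612, limma adjusted p = 0.505), which was the largest distance between the cocultures among the 14 probe sets. Although these readings list the same transcripts, they disagreed in the T cell coculture, where 1 lay below and the other above monoculture.

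B2M is the invariant light chain. It stood at 10.22 and 10.30 in monoculture, at 10.18 and 10.32 with T cells and at 10.08 and 10.22 with monocytes. The 3 groups overlapped within a range of 0.24 over all arrays. Both cocultures minus monoculture gave -0.057 ± 0.089 with a 95% interval from -0.27 to 0.16 (limma adjusted p = 0.804), and the sign turned to 0.10 under quantile normalization.

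TAP1 is the first chain of the peptide transporter. It stood at 9.51 and 9.57 in monoculture, at 9.41 and 9.37 with T cells and at 9.18 and 9.03 with monocytes. The groups followed each other without overlap, monoculture highest and monocyte coculture lowest. The neighbours monoculture and T cell coculture differed by -0.15 ± 0.096 (limma adjusted p = 0.536), and T cell and monocyte coculture by -0.28 ± 0.096 (limma adjusted p = 0.587). Monocyte coculture minus monoculture gave -0.43 ± 0.096 (unadjusted p = 0.00394, limma adjusted p = 0.0953). Both cocultures together differed from monoculture by -0.29 ± 0.083 (limma adjusted p = 0.136), and by -0.15 under quantile normalization.

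TAP2 is the second chain of the transporter, and its 3 probe sets gave different readings. Probe set 1 (8125483) stood at 8.04 and 7.95 alone, at 7.94 and 8.66 with T cells and at 7.48 and 8.26 with monocytes. Probe set 2 (8178841) stood at 7.02 and 6.09, at 5.68 and 6.73, and at 5.46 and 7.28 in the same order. Probe set 3 (8180034) stood at 6.80 and 6.44, at 6.74 and 7.23, and at 6.48 and 6.47. In every probe set the monoculture values lay inside the range of the other arrays or overlapped it. The replicates of the monocyte coculture differed by 1.82 in probe set 2 and lay side by side in probe set 3. The differences from monoculture were 0.090 ± 0.27, -0.27 ± 0.57 and 0.11 ± 0.17, and their 95% intervals reached from -1.67 to 1.13 for probe set 2. In probe set 3 the monocyte arrays lay below both T cell arrays, with a difference of -0.51 ± 0.19 (limma adjusted p = 0.623).

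TAPBP, the bridge between transporter and heavy chain, had readings of the same kind. Probe set 1 (8125713) stood at 7.46 and 6.60 alone, at 6.68 and 6.86 with T cells and at 6.46 and 6.61 with monocytes. Probe set 2 (8178977) stood at 8.96 and 7.97, at 8.50 and 8.47, and at 7.91 and 8.38. Probe set 3 (8180166) stood at 9.34 and 9.70, at 9.43 and 9.29, and at 9.35 and 9.02. Monoculture replicate 1 gave the highest value of all arrays in the first pair of probe sets, and replicate 2 in probe set 3. The differences between both cocultures and monoculture were -0.38 ± 0.24, -0.15 ± 0.28 and -0.25 ± 0.15 (limma adjusted p from 0.441 to 0.845). The first pair turned to 0.057 and 0.35 without monoculture replicate 1.

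PSMB9 is the beta-1 subunit of the immunoproteasome. It stood at 10.89 and 10.94 in monoculture, at 10.84 and 9.97 with T cells and at 10.24 and 9.91 with monocytes. All coculture arrays were lower than monoculture, with T cell coculture replicate 1 close to monoculture and replicate 2 between the monocyte arrays. Both cocultures minus monoculture gave -0.67 ± 0.24 (95% interval -1.27 to -0.084, limma adjusted p = 0.210), and monocyte coculture minus monoculture -0.84 ± 0.28 (limma adjusted p = 0.196). Without T cell coculture replicate 1 the difference for both cocultures was -0.89, and without the first array of each coculture it was -0.97. These fits leave 1 array in a coculture group. T cell coculture replicate 1 also lay nearest to monoculture over all probe sets. It had 79 more than 1 log2 unit above and 75 below the monoculture mean, against 130 to 358 and 219 to 584 in the other coculture arrays. Monocyte and T cell coculture differed by -0.33 ± 0.28 (limma adjusted p = 0.874).

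PSMB10 is the beta-2 subunit of the immunoproteasome. It stood at 8.08 and 8.42 in monoculture, at 7.87 and 7.93 with T cells and at 7.70 and 7.43 with monocytes. Like TAP1, its groups lay in the order monoculture, T cell coculture and monocyte coculture without overlap. This order was not particular to the members. It was also found in the proteasome core genes PSMB7, PSMB4 and PSMA2, while groups overlapped in others such as PSMB5 and PSMB6. The share of all probe sets with this order was not counted. Both cocultures minus monoculture gave -0.52 ± 0.13 (unadjusted p = 0.00697, limma adjusted p = 0.107), and monocyte coculture minus monoculture -0.68 ± 0.15 (limma adjusted p = 0.0931). The neighbours in this order differed by -0.35 ± 0.15 (limma adjusted p = 0.341) and by -0.33 ± 0.15 (limma adjusted p = 0.693). In none of the alternatives did PSMB10 or TAP1 pass the test, and both kept their direction from monoculture in each.

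**Figure D2:**
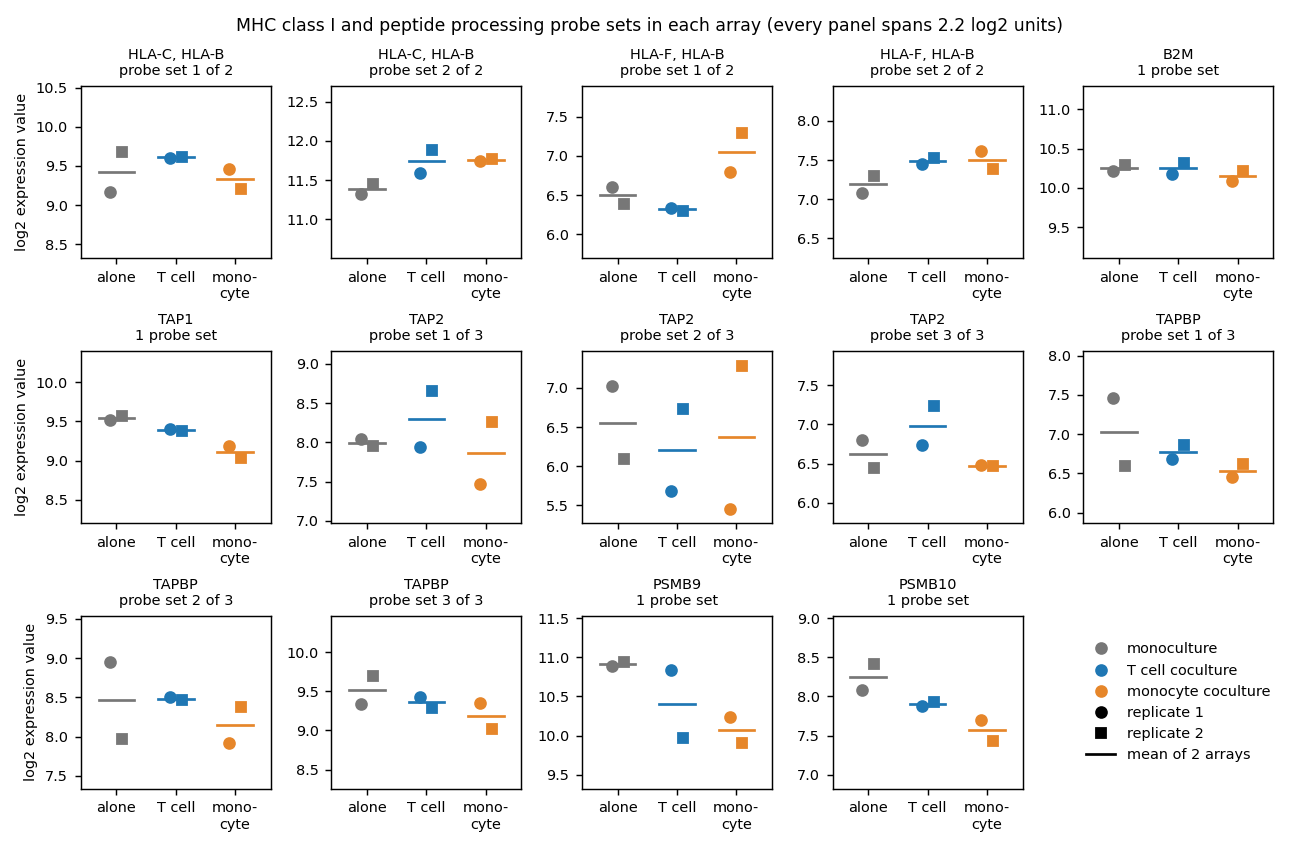
Log2 expression value (y axis, every panel spanning 2.2 log2 units) of the 14 probe sets in each of the 6 arrays, coloured by group (grey for DEV alone, blue beside T cells, orange beside monocytes). Replicate 1 is a circle and replicate 2 a square, and the short bar marks their mean. TAP1 and PSMB10 step down from group to group, B2M stays within 0.24, and TAP2 probe set 2 spreads over 1.82.

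Counted over all 14 probe sets, 0 passed the adjusted test in any comparison by limma. Among all probe sets 0.718% passed for both cocultures, 0% for the T cell coculture, 0.579% for the monocyte coculture and 0% between the cocultures. At an unadjusted p under 0.05 there were 5 members for both cocultures minus monoculture, against 18.8% of all probe sets. There was 1 for the T cell coculture against 15.4%, 6 for the monocyte coculture against 17.5% and 3 between the cocultures against 7.49%. Those 5 were TAP1, PSMB9 and PSMB10 on the lower side and the HLA probe sets 8179731 and 8179019 on the higher side, and HLA-F and HLA-B probe set 1 joined them for the monocyte coculture.

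Arrays of the groups compared often lay apart without passing a test. For both cocultures 3 members lay below monoculture without overlap, against 13.8% of all probe sets, and 2 above it, against 15.2%. For the T cell coculture the counts were 4 below (20.9% of all) and 2 above (25.7% of all). For the monocyte coculture they were 3 below (22.4% of all) and 3 above (27.8% of all). The monocyte arrays lay below the T cell arrays in 6 members (17.1% of all) and above them in 1 (17.6% of all). The median difference of the members was -0.10 for both cocultures, -0.079 for T cells, -0.17 for monocytes and -0.25 between the cocultures, against 0.028, 0.024, 0.028 and 0.0019 over all probe sets. The first 2 of these medians turned to 0.036 and 0.0069 under quantile normalization and to 0.095 and 0.033 without monoculture replicate 1, and the T cell median turned to 0.035 without T cell coculture replicate 1.

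In monoculture and in the monocyte coculture the members varied more between replicates than most probe sets. The median gap between the 2 arrays of a group was 0.28 in monoculture, 0.14 with T cells and 0.26 with monocytes, against 0.11, 0.14 and 0.13 over all probe sets. Gaps over 0.5 were found in 4, 3 and 3 of the 14 members, against 3.86%, 7.80% and 5.08% of all. TAP2 and TAPBP gave most of these gaps.

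**Figure D3:**
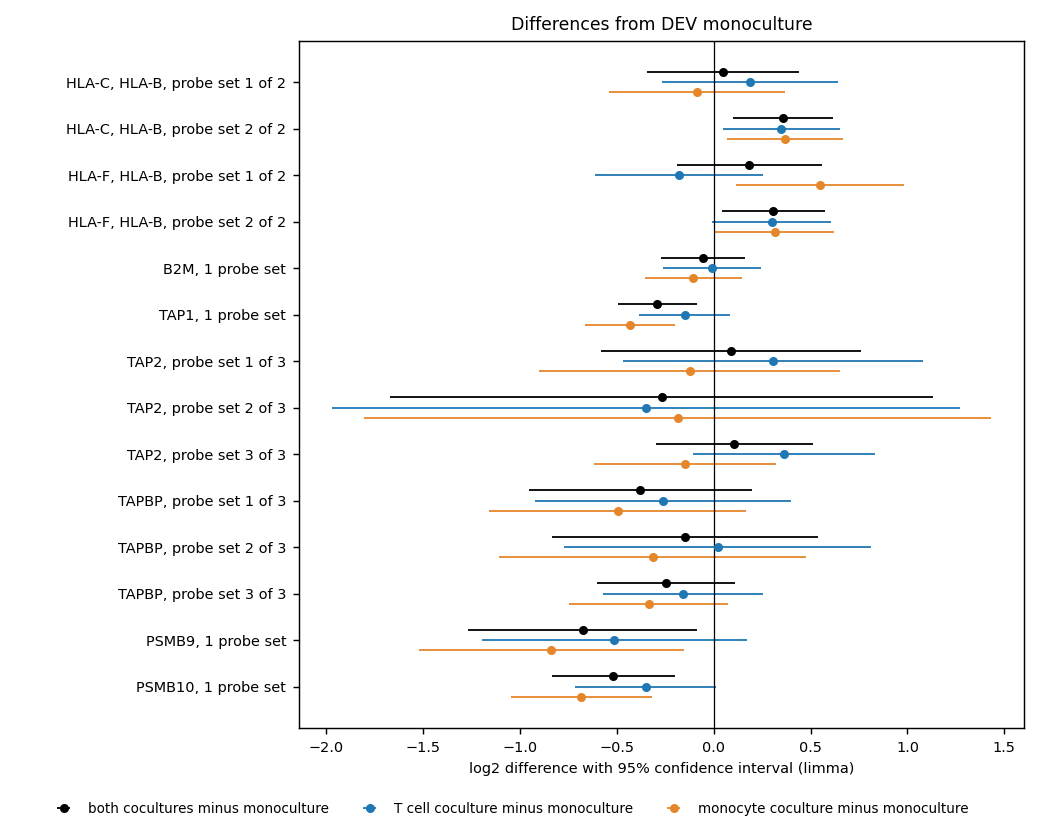
Log2 difference from monoculture (x axis) of each member probe set, with black for both cocultures, blue for the T cell and orange for the monocyte coculture, and with points for the limma estimate and lines for its 95% interval. The intervals of PSMB9, PSMB10 and TAP1 for both cocultures lie below 0, those of HLA-C and HLA-B probe set 2 and HLA-F and HLA-B probe set 2 above it, and B2M stays within -0.27 and 0.16.

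The other class I relatives were described by 5 of 8 listed genes, and the others were not analysed here. None of the 5 passed by limma, and 3 were higher at an unadjusted p under 0.05 (18.8% of all in either direction). MICB, a stress-induced ligand of the NKG2D receptor on NK and T cells, stood at 6.83 and 6.71 alone, at 7.43 and 7.55 with T cells and at 7.28 and 7.21 with monocytes. Its difference of 0.60 ± 0.085 did not pass (limma adjusted p = 0.0504). It passed with median centring (limma adjusted p = 0.0465) and without the dimmest 40% of probe sets (limma adjusted p = 0.0409). Leaving out single arrays gave 0.54 to 0.66, and whether it passed depended on the array left out. MICA, the related ligand, differed by 0.43 ± 0.16 and FCGRT, the heavy chain of the neonatal Fc receptor, by 0.23 ± 0.085 (limma adjusted p = 0.229 and 0.216). The list had a median of 0.23 against 0.028 over all probe sets.

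Chaperones and trimming enzymes of the endoplasmic reticulum prepare peptides and heavy chains. Of 9 listed genes 7 were measured, and PDIA3 and LNPEP were not analysed here. By limma 0 passed, and 3 were lower at an unadjusted p under 0.05 (18.8% of all in either direction). These were the trimming peptidases ERAP1 (-0.46 ± 0.14) and ERAP2 (-0.43 ± 0.12) and the chaperone HSPA5 (-0.48 ± 0.12), with limma adjusted p from 0.105 to 0.166. ERAP2 stood at 9.40 and 9.28 alone, at 9.38 and 9.02 with T cells and at 8.55 and 8.67 with monocytes. Its monocyte arrays were the lowest, at -0.73 ± 0.14 from monoculture (limma adjusted p = 0.0768). The median of the list was -0.14.

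The members PSMB9 and PSMB10 belong to a proteasome whose other genes had mostly lower means beside blood cells. PSMB8, the third immunoproteasome subunit, stood at 8.48 and 8.56 alone, at 8.78 and 8.46 with T cells and at 8.26 and 8.17 with monocytes. It overlapped monoculture in the T cell coculture, and its difference of -0.10 ± 0.11 for both cocultures turned to 0.035 under quantile normalization. PSME3, a subunit of the nuclear proteasome activator, fell by 0.82 (± 0.11, 1.77-fold lower, limma adjusted p = 0.0486), from 8.75 and 8.65 to between 7.74 and 8.03. PSME3 was the 1 gene of 5 on the list of immunoproteasome and activator genes to pass (0.718% of all probe sets did). This call ended with an intensity trend in the prior (limma adjusted p = 0.0719), with quantile normalization (limma adjusted p = 0.0585) and without any 1 of the arrays other than T cell coculture replicate 1 (limma adjusted p from 0.0576 to 0.304). The list had a median of -0.29, and 4 of its 5 genes were lower at an unadjusted p under 0.05 (18.8% of all in either direction).

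The constitutive core of the proteasome was measured for all 14 listed subunits. Every one had a lower mean in the cocultures (42.5% of all probe sets did), 11 lay below monoculture without overlap (13.8% of all) and 10 were lower at an unadjusted p under 0.05 (18.8% of all in either direction), but 0 passed by limma. PSMA5 differed by -0.80 ± 0.14, PSMA6 by -0.53 ± 0.088 and PSMA2 by -0.42 ± 0.082 (limma adjusted p = 0.0588, 0.0566 and 0.0713). When single arrays were left out, these differences ranged from -0.91 to -0.68, from -0.59 to -0.47 and from -0.46 to -0.38. Whether they passed depended on which array was left out. The median of the list was -0.37. For the 19S cap, which unfolds tagged proteins and feeds them into the core, 15 of 18 genes were measured, PSMC5, PSMD7 and PSMD13 were not analysed here, and 14 had a lower mean, with a median of -0.48. PSMD1, a scaffold subunit of the cap, fell by 1.12 (± 0.15, 2.17-fold lower, limma adjusted p = 0.0486), from 8.97 in both monoculture arrays to between 7.67 and 8.21. It was the 1 cap gene that passed (0.718% of all probe sets did). Its call ended with quantile normalization (limma adjusted p = 0.0530) and with the trend (limma adjusted p = 0.0629). It also ended without any 1 monoculture or monocyte array.

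Each immunoproteasome subunit takes the place of a constitutive one, and the pairs were set side by side after their values were seen. For both cocultures minus monoculture PSMB9 gave -0.67 ± 0.24 and PSMB6, the subunit it replaces, -0.29 ± 0.12. PSMB10 gave -0.52 ± 0.13 and its counterpart PSMB7 -0.32 ± 0.081. PSMB8 gave -0.10 ± 0.11 and PSMB5 -0.097 ± 0.11, both of which turned positive under quantile normalization (0.035 and 0.0068). The differences within the pairs were not tested.

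Regulators of class I transcription were measured for 12 of 14 listed genes, and the others were not analysed here. NLRC5, the transactivator of class I genes, stood between 6.28 and 6.52 in all arrays and overlapped in every comparison (0.066 ± 0.095 for both cocultures). IRF1, an interferon-induced factor that binds the interferon-stimulated response element, stood at 7.29 and 7.37 alone, at 7.03 and 6.89 with T cells and at 7.08 and 6.74 with monocytes. It was lower in all 4 coculture arrays, with a difference of -0.40 ± 0.12 (limma adjusted p = 0.146). NFKB1, the p50 subunit of NF-kB, fell by 0.84 (± 0.10, limma adjusted p = 0.0455) in the monocyte coculture, from 9.36 and 9.24 to 8.42 and 8.51. With T cells it stood at 9.11 and 8.96, and the difference between the cocultures was -0.57 ± 0.10 (limma adjusted p = 0.444). The NFKB1 call ended under quantile normalization (limma adjusted p = 0.0582), with the trend (limma adjusted p = 0.0799) without the first array of each coculture (limma adjusted p = 0.0573) and without any 1 monoculture or monocyte array (limma adjusted p from 0.163 to 0.258). The list had a median of -0.20 for both cocultures, where 0 passed by limma and 3 were lower at an unadjusted p under 0.05 (18.8% of all in either direction).

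Of 9 genes of interferon receptors and signalling, 0 passed in any comparison by limma. For both cocultures 1 was higher and 1 lower at an unadjusted p under 0.05 (18.8% of all in either direction). These were the chains of the interferon gamma receptor, IFNGR2 at 0.28 ± 0.081 and IFNGR1 at -0.24 ± 0.090 (limma adjusted p = 0.135 and 0.234). IFNAR1, of the type I interferon receptor, differed by -0.33 ± 0.21, with T cell coculture replicate 2 at 6.13 and all other arrays between 6.86 and 7.16.

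MHC class II genes, which present peptides to CD4-positive T cells, had mostly higher means beside blood cells. Of 12 listed genes 9 were measured, HLA-DRA, HLA-DRB1 and CD74 were not analysed here, and 8 had a higher mean in the cocultures (57.5% of all probe sets did), with a median of 0.47. HLA-DRB5 stood at 5.35 and 5.34 alone, at 6.01 and 6.23 with T cells and at 6.68 and 6.74 with monocytes. It rose by 1.07 (± 0.092, 2.09-fold, limma adjusted p = 0.0338) for both cocultures and by 1.36 (± 0.11, limma adjusted p = 0.0398) with monocytes. Leaving out any 1 monoculture or monocyte array ended these calls (limma adjusted p from 0.123 to 0.290), and the trend ended that for monocytes (limma adjusted p = 0.0556). HLA-DRB5 shares most of its sequence with other DRB genes, so that the signal cannot be assigned to it alone. HLA-DRB5 was the 1 class II gene to pass (0.718% of all probe sets did for both cocultures and 0.579% for monocytes). At an unadjusted p under 0.05, 5 were higher for both cocultures (18.8% of all in either direction).

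**Figure D4:**
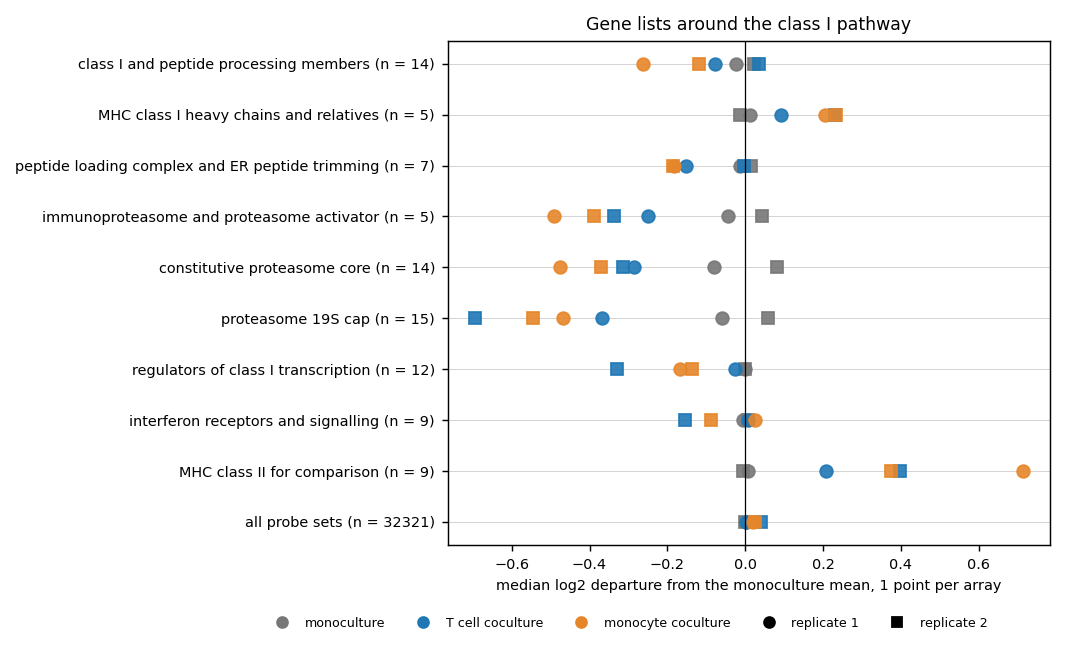
Median log2 departure from the monoculture mean (x axis) over the members, over the 8 gene lists of the pathway and over all probe sets, with 1 point per array. Colours are grey for DEV alone, blue beside T cells and orange beside monocytes, with a circle for replicate 1 and a square for replicate 2. The core and cap of the proteasome lie between -0.69 and -0.29 in all coculture arrays, MHC class II between 0.21 and 0.71, and the members between -0.26 and 0.035.

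Array by array, the median departure of the members from the monoculture mean was -0.078 and 0.035 with T cells and -0.26 and -0.12 with monocytes. The corresponding values of the proteasome core were -0.29 and -0.31 with T cells and -0.48 and -0.37 with monocytes. All probe sets together stood between 0.0026 and 0.041.

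Each member gene was read by its single-symbol probe set of highest mean, and TAP2 (probe set 1) and PSMB9 then had the widest ranges over the arrays (1.18 and 1.02). The profiles most like theirs were searched among single-symbol probe sets as the smallest root mean square difference of centred values over the 6 arrays. For PSMB9 these were RFC2, a subunit of the clamp loader of DNA replication (0.069), the steroid sulfatase STS (0.075) and LHFPL2 (0.078), against a median of 0.45 over 19157 probe sets. RFC2 stood at 8.41 and 8.35 alone, at 8.26 and 7.28 with T cells and at 7.71 and 7.27 with monocytes, with T cell coculture replicate 1 again beside monoculture. For TAP2 probe set 1 they were the small nucleolar RNA SNORD50B (0.081), PRPF38B (0.12) and SERTAD2 (0.14), against a median of 0.38. These profiles were picked as the nearest, so that lying below the median was fixed by the choice and is no test of likeness.

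The label of the cells was checked against marker genes. The mean level of 8 B cell markers was 8.55 to 9.08 in all arrays, but single markers did not stay level. PAX5, a transcription factor of B cell identity, stood at 10.23 and 10.00 alone and between 7.43 and 9.57 in the cocultures, while MS4A1, which encodes CD20, had means of 9.22 alone and 9.79 in the cocultures. None of the 8 passed for both cocultures by limma, and 3 had an unadjusted p under 0.05 (18.8% of all probe sets did). The 13 T cell markers had a mean level of 5.69 to 5.81 in all arrays, with CD3E between 4.98 and 5.50. CD3D stood between 7.47 and 8.33 with its highest values in monoculture. It was the 1 T cell marker to pass a test, on the lower side in the monocyte coculture (0.579% of all probe sets passed there). The 10 monocyte markers stood at 5.64 to 5.76 in 5 arrays and at 6.20 in monocyte coculture replicate 1. That array had LYZ at 8.42 against 4.98 to 5.09 elsewhere and CD14 at 6.15 against 5.21 to 5.42. S100A8 (5.54) and CLEC7A (5.15) were also highest there, and VCAN (6.59) stood level with monoculture replicate 2. FCN1 (5.78), S100A9 (5.44), CSF1R (5.84), CD163 (5.11) and MNDA (7.96) were not highest in that array. Blood cells carry class I as well, and in these arrays a change in the share of a cell type and in RNA per cell cannot be told apart. HLA-C and HLA-B probe set 2 stood at 11.74 in monocyte coculture replicate 1 and at 11.77 in replicate 2, and HLA-F and HLA-B probe set 1 at 6.79 and 7.29. HLA-F and HLA-B probe set 2 was higher in replicate 1 (7.62 against 7.39), as were PSMB9 (10.24 against 9.91) and TAP1 (9.18 against 9.03). The median departure of the MHC class II list from the monoculture mean was 0.71 in monocyte coculture replicate 1 and 0.37 in replicate 2. HLA-DRB5 stood at 6.68 and 6.74 in these arrays. The part of monocyte signal in any of these class I and class II values was not tested.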

How the data were processed

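RNA of 6 DEV samples (40 ng each) was amplified over the whole transcriptome and, once biotinylated, put on 1 Affymetrix gene array per sample. The authors deposited 1 normalized log2 value per probe set and array. How the background was corrected and the probes were normalized and summarised is not given in the sources used here, and these steps could shift differences as small as those of the members. Array medians lay between 5.64 and 5.73, 0 values were missing, and the values were used as deposited. The number of arrays limits the precision.

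Gene symbols came from the platform annotation (19158 probe sets with 1 symbol, 1388 with several, 11775 with none in the table used). Promoter windows came from RefSeq (GRCh38.p14). The genome build behind the probe sets is not given in the sources used, so no probe set coordinates are printed.

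One mean per culture group was fitted over all 6 arrays and 32321 probe sets with lmFit and eBayes in limma (version 3.58.1, R 4.3.3), with 3 residual and 3.08 prior degrees of freedom. The 4 comparisons were both cocultures minus monoculture, each coculture minus monoculture, and monocyte minus T cell coculture. A probe set passed at a Benjamini-Hochberg adjusted p under 0.05 over all probe sets of the comparison. Errors after a difference are standard errors, and intervals cover 95%. On simulated data for both cocultures minus monoculture over 32321 probe sets, the fit recovered 97% of those changed by 1 and 100% of those changed by 2 on the log2 scale, with 13 false calls. The simulated noise was independent between arrays, and changes smaller than 1 were not simulated. All member differences were smaller than 1, so these shares do not tell how many changes of their size the fit would find.

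Named are all member probe sets and, from 8 gene lists, the genes that passed in any comparison or otherwise the 3 with the smallest p for both cocultures, plus PSMB8, NLRC5, IRF1 and others that are not reported here. Each listed gene is read by its single-symbol probe set of highest mean. PSMB5, PSMB6, PSMB7 and the named marker genes were added after their values were seen. The members and lists were chosen with earlier results of these data known.

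Alternatives were quantile normalization, median centring, leaving out the dimmest 40% of probe sets, an intensity trend in the prior variance, a replicate block and leaving out each array. Leaving out the first array of both cocultures and a crossed replicate block were added after seeing the data.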

Additional observations from a re-analysis of the deposited data

Results flagged for a closer look

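HLA-F and HLA-B probe set 1 (8117760) stood on opposite sides of monoculture in the cocultures. Both T cell coculture arrays (6.34 and 6.29) lay below both monoculture arrays (6.60 and 6.39), and both monocyte coculture arrays (6.79 and 7.29) lay above them. The difference between the cocultures was 0.73 on the log2 scale and did not pass the limma test over all probe sets (adjusted p = 0.505, with 0.346 without the first array of each coculture).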

How the results depend on the processing

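With 2 arrays per group the calls rest on single arrays: for both cocultures 0 of all probe sets passed without any 1 of the monoculture or monocyte arrays. The normalization behind the deposited values is unknown. No array has a measured depth.

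The count of members that passed stayed at 0 of 14 in all 4 comparisons under quantile normalization, median centring, the intensity trend and without the dimmest 40%. Without the first array of each coculture it was 1 for both cocultures, 1 for T cells and 1 for monocytes. Leaving out 1 array gave 0 to 1 in each of these comparisons. The 1 was PSMB9 each time, without T cell coculture replicate 1 or, for monocytes only, also without replicate 2. These fits leave 1 array in a group, and more of all probe sets passed in them than with all arrays. In the monocyte comparison its value of -0.84 stays the same without a T cell array, and only the estimate of the spread differs.

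Over all probe sets, 232 passed for both cocultures, against 55 with the intensity trend, 564 with median centring, 756 without the dimmest 40%, 2545 without the first array of each coculture and 0 to 2329 when 1 array was left out. For the monocyte coculture 187 passed, against 0 with the trend, 440 with centring, 572 without the dimmest 40%, 726 without the first coculture arrays and 0 to 1167 when 1 array was left out. For the T cell coculture 0 passed, against 1535 without the first coculture arrays and 0 to 1391 when 1 array was left out. Between the cocultures 0 passed, against 0 to 1.

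The labels and methods do not say whether equal replicate numbers pair the samples. Deviations from the group means correlated at 0.027 (monoculture and T cell coculture), -0.15 (monoculture and monocyte coculture) and 0.26 (the cocultures). Whether arrays of equal number shared a batch or donor was not tested. With the replicate block 0 members passed in each comparison, and 292 and 222 of all probe sets passed for both and for monocyte cocultures. NFKB1 no longer passed for monocytes with the block (limma adjusted p = 0.0512) and PSME3 did (limma adjusted p = 0.0496). With the crossed replicate block 0 members passed, and 937, 690 and 2 of all probe sets passed for both, monocyte and T cell cocultures.

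Signs turned for small differences, and the cause was not tested. Under quantile normalization B2M gave 0.10 for both cocultures, 0.085 for T cells and 0.12 for monocytes, HLA-C and HLA-B probe set 1 (8178498) gave 0.11 for monocytes, and PSMB8 gave 0.035 and PSMB5 0.0068 for both. Under median centring HLA-C and HLA-B probe set 1 gave -0.014 for both and TAPBP probe set 2 (8178977) -0.037 for T cells. Without the first array of each coculture, both cocultures gave 0.00081 for the median of the members, -0.011 for HLA-C and HLA-B probe set 1, 0.013 for B2M, 0.45 for TAP2 probe set 2 (8178841) and -0.021 for NLRC5. T cells gave 0.064 for B2M, 0.17 for TAP2 probe set 2 and -0.060 for PSMB8, and monocytes gave 0.27 for TAP2 probe set 1 (8125483) and 0.72 for TAP2 probe set 2.

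Leaving out each array in turn gave these ranges for the results whose sign turned. The median of the members ranged from -0.13 to 0.095 for both cocultures and from -0.079 to 0.035 for T cells. For both cocultures they were -0.21 to 0.31 (HLA-C and HLA-B probe set 1), -0.11 to 0.29, -0.73 to 0.20 and -0.072 to 0.29 (TAP2 probe sets 1 to 3), -0.81 to 0.057 and -0.64 to 0.35 (TAPBP probe sets 1 and 2) and -0.27 to 0.074 (PSMB5). For T cells they were -0.074 to 0.45 (HLA-C and HLA-B probe set 1), -0.081 to 0.064 (B2M), -0.053 to 0.66 and -0.87 to 0.17 (TAP2 probe sets 1 and 2), -0.70 to 0.17, -0.47 to 0.52 and -0.34 to 0.021 (TAPBP), -0.018 to 0.40 (MICA), -0.060 to 0.26 (PSMB8) and -0.32 to 0.041 (ERAP2). For monocytes they were -0.35 to 0.17 (HLA-C and HLA-B probe set 1), -0.52 to 0.27, -1.10 to 0.72 and -0.33 to 0.031 (TAP2) and -0.81 to 0.18 (TAPBP probe set 2). Between the cocultures PSMB9 ranged from -0.76 to 0.11.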
